A study of Mus musculus with 45 samples.

Results

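Coagulation and complement are the 2 protein cascades of blood plasma, and most of their components are secreted by hepatocytes. The 38 genes described here are 20 coagulation genes (clotting factors, fibrinogen chains, anticoagulants and fibrinolysis proteins) and 18 complement genes. They are a part of these cascades, and 50 further genes of the cascades are described below. The background is all 21631 protein-coding mouse genes on chromosomes 1 to 19 and X. The 38 genes were described by where the clock repressor REV-ERBα bound near them in mouse liver. A site is the summit of a deposited chromatin immunoprecipitation (ChIP-seq) peak that lies inside the annotated span of a gene or within 10 kb of it, and its strength is the authors' fold enrichment of the summit over the local background.

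Both lists came from livers of REV-ERBa3HA/3HA mice, in which the endogenous REV-ERBα carries a 3HA tag, precipitated with anti-HA magnetic beads and with no AAV given. The first list is from 4 samples taken at zeitgeber time 10 (ZT10), hour 10 of the light-dark cycle, and the other from 4 samples at ZT22. Each list was made by the authors from the pool of its 4 samples, so no value has a replicate spread and no test between times or genes was made. The labels do not give the age of the mice. The remaining 37 of the 45 samples, untagged and input controls among them, were not analysed here, so what part of a fold depends on the tag was not tested.

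REV-ERBα is a heme-binding nuclear receptor that represses transcription by recruiting the NCOR1 and HDAC3 corepressor. It binds DNA at AGGTCA half-sites with an A/T-rich flank, or at pairs of them, and is also found at sites held by other liver factors. Its protein is abundant in liver in the later part of the light phase and scarce in the later part of the dark phase. Coagulation is a chain of serine proteases (factors XII, XI, IX, VII, X and prothrombin) with cofactors that ends in the cleavage of fibrinogen to fibrin. Complement is started by the classical, lectin or alternative route, each leading to the cleavage of C3 and then to the membrane attack complex of the terminal components. Binding near a gene says nothing by itself about the level of its RNA, and no expression data were used.

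At ZT10, 35 of the 38 genes had at least 1 site (92.1%), against 54.5% of all protein-coding genes. The strongest site reached a fold of 10 or more at 27 of them (71.1% of the 38), against 19.1% of all genes. Several sites were common: 29 of the 38 had 2 or more, against 32% of all genes, and 6 had 1. The median strongest fold was 13.3 over the 38 genes and 4.56 over all genes, with genes that have no site counted as lowest. The spans are of a like size, with a median of 21.1 kb against 17.3 kb, and per 10 kb of span and flank the 38 genes held 0.612 sites against 0.193 for all genes. Genes chosen as markers of hepatocytes gave higher values by the same rule: all 10 had a site, 9 had a fold of 10 or more, the median strongest fold was 15.3, and they held 0.744 sites per 10 kb. The excess over all genes is therefore not particular to these 38 genes.

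At ZT22, none of the 38 genes had a site, and of all protein-coding genes 0.0693% had one. The whole ZT22 list held 36 peaks, against 27929 at ZT10. No ZT22 peak overlapped any of the 103 distinct ZT10 sites of these genes, and the ZT22 summit nearest to any of these genes lay 1.41 Mb from Masp2. The lists hold no peak with a fold under 4, so weaker binding at ZT22 is not listed and its level is unknown.

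The 103 sites had folds from 4.01 to 31.9, with a median of 8.78, while the median of all ZT10 peaks was 6.81. The number of DNA fragments stacked at each summit, solved from the fold and the p-value of the peak, ran from 83 to 690 with a median of 199. Intervals given below with a fold are 95% Poisson intervals of that number with the local background held fixed. They cover counting error only, and fragments from amplified libraries are not independent molecules. The local background stood at its lowest value for 88 of the 103 sites and at most at 2.42 times that value. Of the 103 summits, 53 lay inside the span of a gene described here and 50 outside, 30 were within 1 kb of a gene end, and 8 belonged to a pair of neighbouring genes that both lie within reach.

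**Figure D1:**
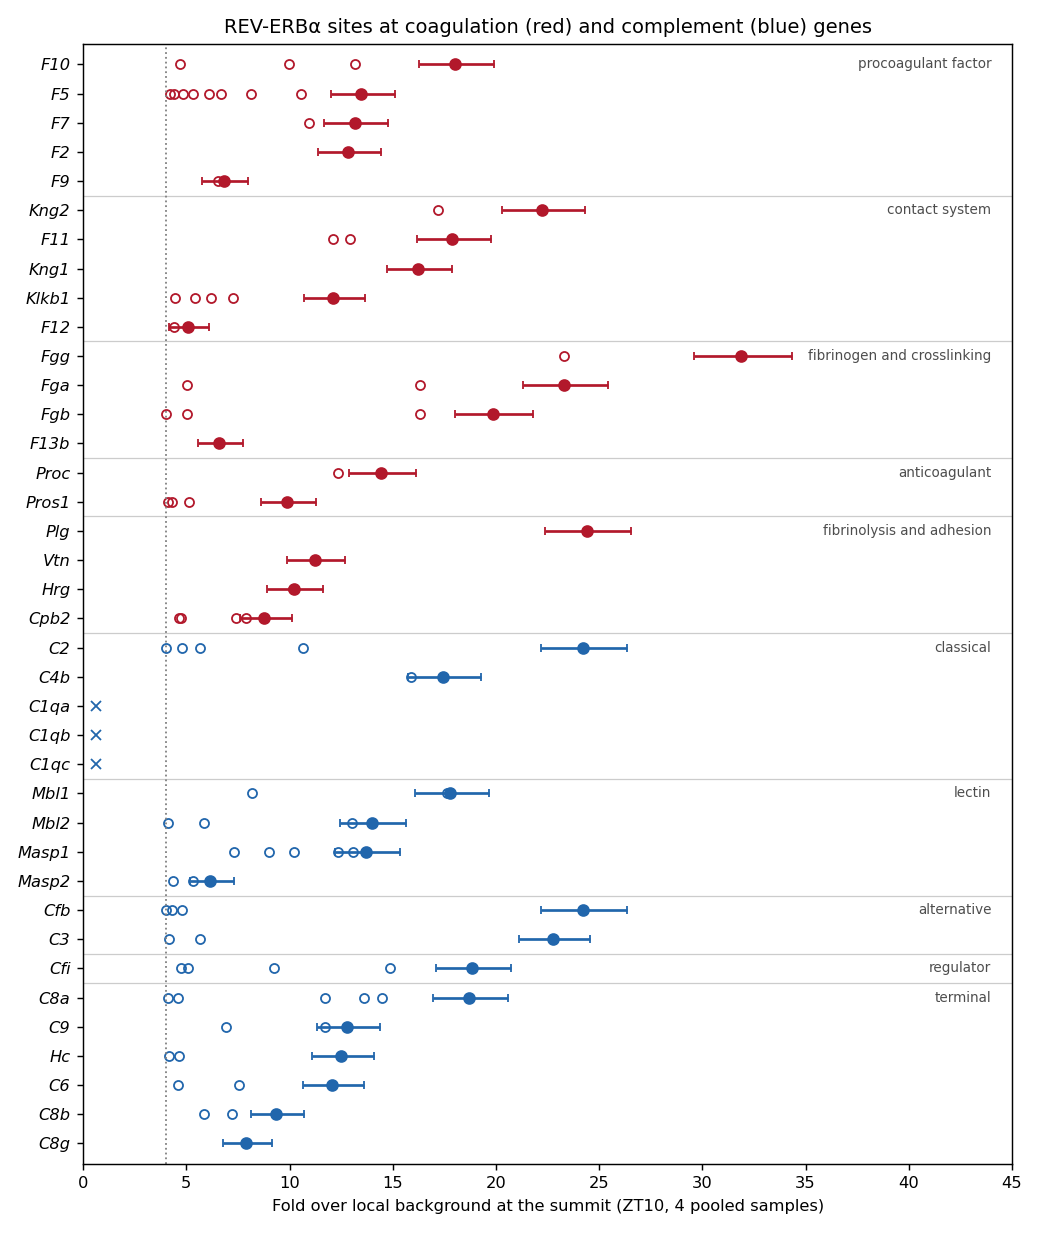
Fold over local background (x axis) of every ZT10 site at each of the 38 genes (rows, grouped by role; red coagulation, blue complement). Filled points are the strongest site with its 95% counting interval, open points the other sites, crosses genes with no site, and the dotted line the fold of 4 under which no peak is listed; Fgg stands alone at 31.9 and the 3 C1q genes have no site.

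Promoter sequences are shown for the 6 genes with the strongest summits in or within 250 bp of the promoter window, among the 29 genes that have a RefSeq promoter entry, and for Fgg and C3, whose strongest summits lie farther upstream. Each runs 5′ to 3′ along the gene's own strand from 250 bases before to 50 bases after the RefSeq start, in the GRCm38.p6 assembly, whose coordinates are those of mm10. Capitals mark matches to the motifs named in the next paragraph, on either strand. The regions are chr16:23029052-23029351 on the minus strand for Kng2, chr8:13037058-13037357 on the plus strand for F10, chr15:4726960-4727259 on the plus strand for C6 and chr15:6445096-6445395 on the plus strand for C9. They are chr4:104876349-104876648 on the minus strand for C8a, chr11:78498870-78499169 on the plus strand for Vtn, chr3:83007474-83007773 on the plus strand for Fgg and chr17:57228087-57228386 on the minus strand for C3.
Kng2: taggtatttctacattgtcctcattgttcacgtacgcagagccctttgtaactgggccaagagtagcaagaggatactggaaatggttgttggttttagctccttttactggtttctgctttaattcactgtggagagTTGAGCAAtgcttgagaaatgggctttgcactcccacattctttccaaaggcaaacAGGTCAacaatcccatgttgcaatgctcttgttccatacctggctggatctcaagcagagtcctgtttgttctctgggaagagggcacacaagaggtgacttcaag
F10: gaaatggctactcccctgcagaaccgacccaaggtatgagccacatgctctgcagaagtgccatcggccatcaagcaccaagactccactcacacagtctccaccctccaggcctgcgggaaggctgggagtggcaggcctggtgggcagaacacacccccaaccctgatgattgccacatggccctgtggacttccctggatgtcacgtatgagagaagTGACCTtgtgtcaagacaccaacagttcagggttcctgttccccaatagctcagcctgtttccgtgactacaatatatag
C6: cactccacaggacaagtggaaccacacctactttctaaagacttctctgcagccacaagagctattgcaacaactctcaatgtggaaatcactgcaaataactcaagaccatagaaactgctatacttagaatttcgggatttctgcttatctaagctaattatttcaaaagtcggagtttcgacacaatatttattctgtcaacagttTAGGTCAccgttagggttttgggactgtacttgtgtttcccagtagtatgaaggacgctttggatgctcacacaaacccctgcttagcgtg
C9: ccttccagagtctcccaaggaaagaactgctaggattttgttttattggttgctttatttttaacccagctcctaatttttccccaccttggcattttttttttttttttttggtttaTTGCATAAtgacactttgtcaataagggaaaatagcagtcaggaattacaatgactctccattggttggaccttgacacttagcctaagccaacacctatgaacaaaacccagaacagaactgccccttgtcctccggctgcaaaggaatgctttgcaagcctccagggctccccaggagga
C8a: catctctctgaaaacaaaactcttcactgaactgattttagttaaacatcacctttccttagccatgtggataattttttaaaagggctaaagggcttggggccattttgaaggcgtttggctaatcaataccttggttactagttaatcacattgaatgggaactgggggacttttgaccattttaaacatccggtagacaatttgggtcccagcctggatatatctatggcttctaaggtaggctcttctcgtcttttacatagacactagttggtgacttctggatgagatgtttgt
Vtn: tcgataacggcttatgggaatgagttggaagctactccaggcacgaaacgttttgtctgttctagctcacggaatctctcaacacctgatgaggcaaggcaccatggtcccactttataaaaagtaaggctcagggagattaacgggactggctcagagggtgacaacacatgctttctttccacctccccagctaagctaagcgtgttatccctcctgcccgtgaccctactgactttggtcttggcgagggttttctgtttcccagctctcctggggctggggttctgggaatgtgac
Fgg: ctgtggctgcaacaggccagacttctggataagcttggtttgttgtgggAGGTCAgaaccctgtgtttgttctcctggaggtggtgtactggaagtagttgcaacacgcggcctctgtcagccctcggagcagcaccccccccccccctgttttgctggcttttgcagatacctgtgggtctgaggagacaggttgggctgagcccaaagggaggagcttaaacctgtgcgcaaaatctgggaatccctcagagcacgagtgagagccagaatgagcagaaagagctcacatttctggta
C3: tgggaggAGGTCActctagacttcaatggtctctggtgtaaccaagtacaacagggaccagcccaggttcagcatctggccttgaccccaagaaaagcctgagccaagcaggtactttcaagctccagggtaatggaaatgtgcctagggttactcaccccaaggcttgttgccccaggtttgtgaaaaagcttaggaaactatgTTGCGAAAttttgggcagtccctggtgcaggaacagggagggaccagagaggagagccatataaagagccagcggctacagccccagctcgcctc

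The nuclear receptor half-site AGGTCA occurred in 12 of the 30 promoter windows available for 29 of these genes (40%; C8g has 2 windows), and in 14.6% of all 21045 windows in the RefSeq table. In the sequences above it lies 56 bases before the start of Kng2, 30 before that of F10, where it reads TGACCT because it is on the other strand, 201 before that of Fgg and 243 before that of C3. The longer form TAGGTCA, which contains the half-site, was found in 2 windows, those of C6 (41 bases before the start) and C1qc, and in 2.35% of all windows. A pair of half-sites in tandem, with 2 bases between them (RevDR2) or 1 (DR1), was in none of the 30, and in 0% and 0.0475% of all windows. The C/EBP motif TTGCNNAA, bound by liver-enriched activators, was in 10 windows (33.3%) against 10.3% of all. The DBP and NFIL3 motif TTATGNAA, which output factors of the clock bind, was in 1 window, that of C9, and in 3.12% of all. The letters in capitals at C9, 132 bases before its start, match both of these motifs. The HNF1 motif was in none, and in 0.00475% of all windows. No match to any of these motifs was found in the C8a and Vtn windows, although the summits there lie 209 bases before and 98 bases after the start. A match describes letters in a 300-base window and is not evidence of a bound site.

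Of the 29 genes with a RefSeq promoter entry, 18 had a site within 1 kb of the start (62.1%), against 34.5% of the 17274 protein-coding genes with an entry. The strongest site was not always that one. Among the 27 genes with both an entry and a site, it lay within 1 kb of the start at 10, more than 1 kb upstream at 8 and more than 1 kb downstream at 9. A summit of any strength fell inside the 300-base promoter window itself at 8 genes. The same shares over all genes were not computed for this count or for the places of the strongest site. Whether these placements differ from those at other genes is therefore unknown. For the 9 genes with no entry (Kng1, Proc, Plg, C1qa, C2, C4b, Masp1, Cfb and Cfi) distances are to the nearer end of the span, which may be its start or its finish.

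**Figure D2:**
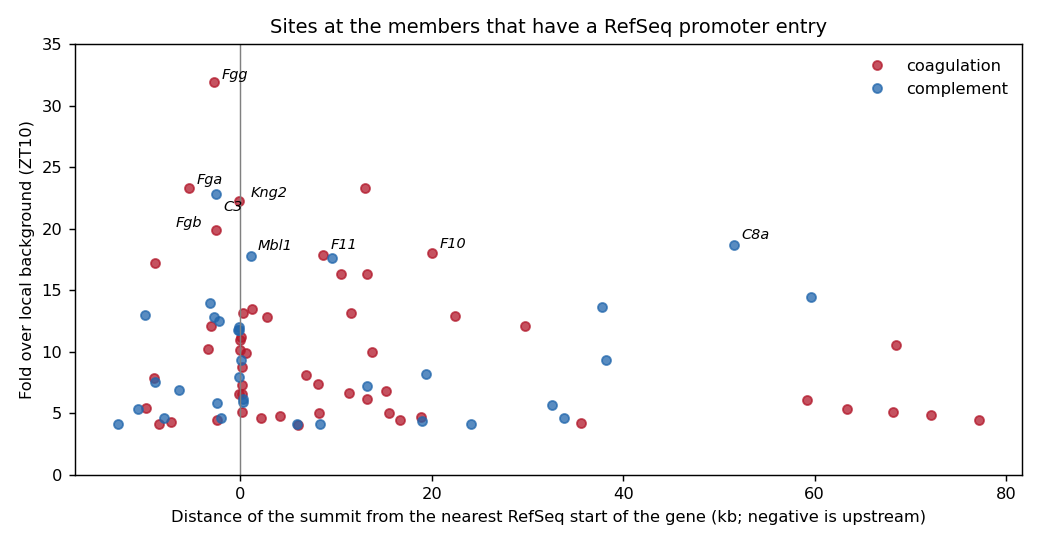
Fold of each ZT10 site (y axis) against its distance from the nearest RefSeq start of the gene in kb (x axis, negative is upstream), for the 29 genes with a promoter entry (red coagulation, blue complement). The sites of highest fold lie a few kb upstream of Fgg (31.9), Fga (23.3) and C3 (22.8), and 126 bp upstream of Kng2 (22.2). The summit of fold 23.3 is also drawn for Fgg, 13051 bp downstream of its start. The strongest site of C8a (18.7) lies 51556 bp downstream.

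The strongest site of all 38 genes lay at the fibrinogen gene Fgg. Fgg, Fga and Fgb encode the γ, α and β chains of fibrinogen and sit side by side on chromosome 3 from 83007724 to 83049863. In this stretch of 42.1 kb, 39.9 kb (94.8%) was covered by ZT10 peaks. Fgg had the highest fold, 31.9 (interval 29.6 to 34.3, 690 fragments, −log10 q 188), at position 83004990, 2734 bp upstream of its start, in a peak 16500 bp wide that runs over the whole gene. Its interval overlapped that of no other gene. For Fga the strongest summit was at 83020775, 5378 bp upstream, with a fold of 23.3 (21.3 to 25.4, −log10 q 121). That peak, 17793 bp wide, was the widest at any of the 38 genes and also lies within 10 kb of Fgg. Fgb, which is read towards the other 2 genes, had its strongest summit 2600 bp upstream at 83052463, with a fold of 19.9 (18.04 to 21.8, −log10 q 97.1). The other summits in the cluster had folds of 16.3, 5.02 and 4.01. None of the 3 genes had a summit within 1 kb of its start, so their binding rests on the choice of reach. With a reach of 2 kb Fgg had no site, and Fga and Fgb kept summits with folds of 5.02 and 4.01. F13b, the carrier subunit of factor XIII, which crosslinks fibrin, had 1 site with a fold of 6.58, 141 bp upstream of its start.

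**Figure D3:**
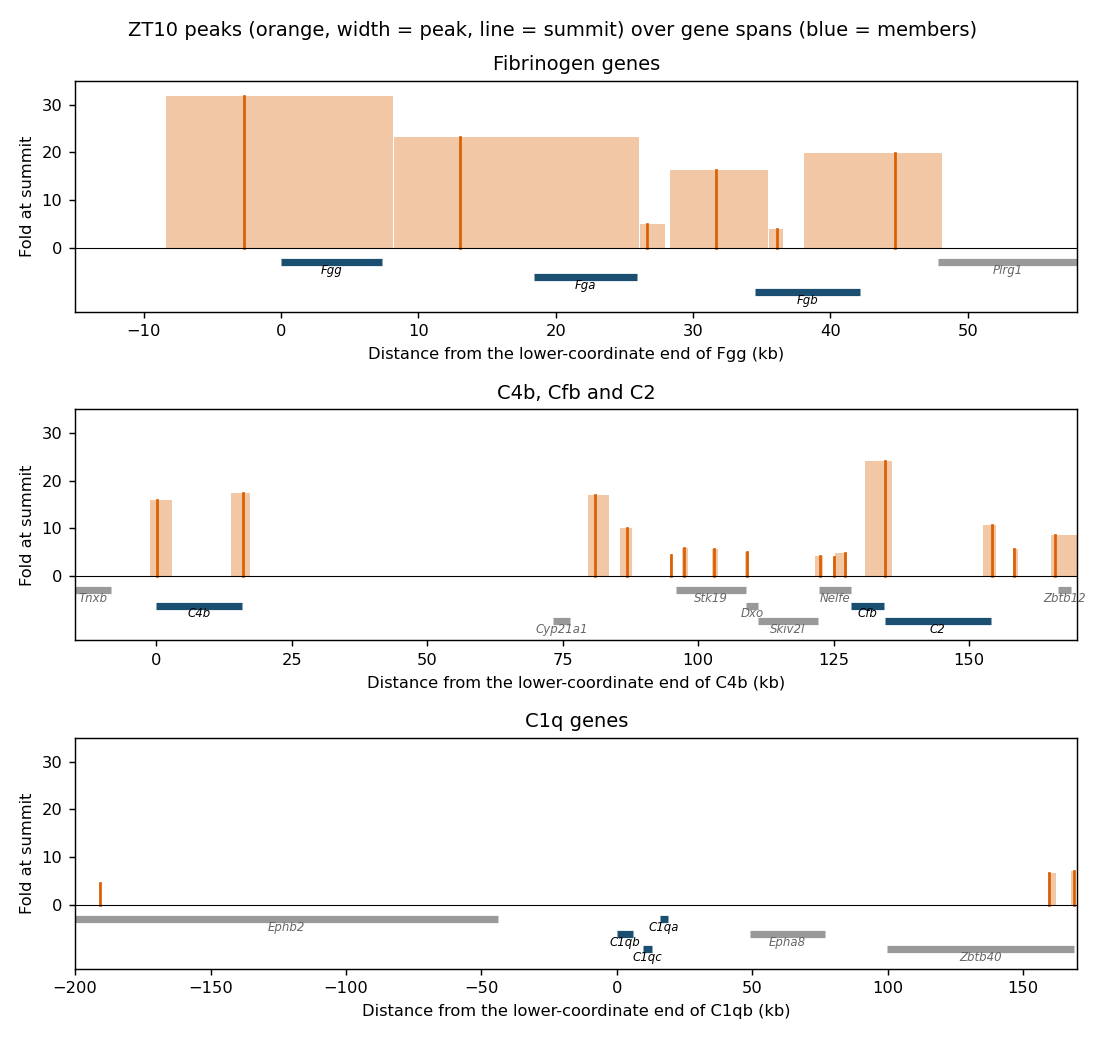
ZT10 peaks (orange blocks as wide as the peak and as high as its fold, with a line at the summit) over 3 gene clusters, against distance in kb from the lower end of the cluster. Peaks cover 94.8% of the fibrinogen cluster, C2 and Cfb share a summit of fold 24.2 where their spans face each other, and no peak lies over the C1q genes, whose nearest summits are 141 and 191 kb away.

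Every one of the 5 procoagulant factors had a site. F10 encodes factor X, the protease that activates prothrombin, and had 4 sites with folds of 18.02, 13.1, 9.98 and 4.70. The strongest, at position 13057366 on chromosome 8 (16.3 to 19.9, −log10 q 83.5), lay 690 bp past the end of the gene, and that of fold 13.1 lay 277 bp after the start. This start site is also the strongest within reach of F7, the gene of factor VII, which ends 1776 bp before it. F7 had its own summit with a fold of 10.9, 99 bp upstream of its start. F5, the gene of cofactor V, had the most sites of the 38 genes, 9, and the strongest of them (13.5) lay 1154 bp after the start. F2, the prothrombin gene, had 1 site, with a fold of 12.8, 2778 bp inside the gene. F9, whose product is lacking in hemophilia B, was the weakest of the group, with folds of 6.81 deep inside the gene and 6.53 at 157 bp after the start.

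The contact system, which starts clotting on surfaces and releases bradykinin from kininogen, also had sites at all 5 of its genes. The paralogous kininogen genes lie near each other on chromosome 16. Kng2 had a fold of 22.2 (20.3 to 24.3, −log10 q 114) at position 23029227, 126 bp upstream of its start, and a further site of 17.2 farther upstream at 8962 bp. Kng1 had 1 site, with a fold of 16.2 (14.7 to 17.9), 44 bp outside its span, where the local background was 1.21 times the lowest. F11, the factor XI gene on chromosome 8, had folds of 17.9, 12.9 and 12.1, of which the highest (16.2 to 19.7, −log10 q 82.2) was at position 45253382, 8649 bp into the gene. The site of fold 12.1 lies between F11 and its neighbour Klkb1, which encodes prekallikrein, 3067 bp upstream of the F11 start and 1590 bp past the end of Klkb1, and is the strongest site of Klkb1. At its own start Klkb1 had a summit with a fold of 7.27. F12, the gene of factor XII, stood lowest of all genes with a site, at 5.06 (4.18 to 6.08), 199 bp after its start.

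Of the anticoagulant genes, Proc, which encodes protein C, had sites with folds of 14.4 (12.9 to 16.1, −log10 q 60.4), 61 bp outside its span, and 12.4. Its cofactor gene Pros1 had 4, of which the strongest (9.89) lay 589 bp after the start and the others had folds of 4.10 to 5.11. Plg encodes plasminogen, the precursor of the enzyme that dissolves fibrin, and had 1 site, with the highest fold after Fgg. That summit, at 12380587 on chromosome 17, had a fold of 24.4 (22.4 to 26.5, −log10 q 130.5), lay 1978 bp inside the lower end of the gene and belonged to a peak 12063 bp wide. Its counting interval overlapped those of C2, Cfb, Fga, C3 and Kng2, so the order among these 6 genes is not resolved. The genes of proteins that bind plasminogen or act on its substrate had lower folds. Vtn (vitronectin) had 11.2, 98 bp after the start, Hrg (histidine-rich glycoprotein) had 10.2 at each of its sites, 7 and 3356 bp upstream, and Cpb2, whose product slows fibrinolysis, had 8.78, 152 bp after the start.

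In complement, the highest folds were those of C2, Cfb and C3. C2 and Cfb encode the proteases of the classical and the alternative C3 convertase and lie end to end on chromosome 17. They share a summit at 34862613 with a fold of 24.2 (22.2 to 26.4, 523 fragments, −log10 q 128), 11 bp inside C2 and 99 bp outside Cfb. One binding site thus accounts for the strongest value of both, and when each summit was given to its nearest gene alone, Cfb had no site. C3 encodes the protein both convertases cleave. Its strongest summit, at 57230691 on chromosome 17, had a fold of 22.8 (21.1 to 24.6) with 671 fragments and a local background of 1.45 times the lowest, and by −log10 q (157) it ranked second of all 38 genes. It lay 2555 bp upstream of the C3 start but nearer to Trip10. The other C3 sites had folds of 5.66 and 4.14, so with a reach of 2 kb, or with the nearest gene alone, C3 stood at 4.14.

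C4b encodes the other component of the classical convertase. Its folds were 17.4 (15.7 to 19.3) and 15.9 near its ends, 184 bp outside and 169 bp inside. Both were below the summit that C2 shares with Cfb (24.2). They were above the other sites of C2, of which the strongest had 10.7. A near-identical copy, C4a, annotated as a transcribed pseudogene, lies in the same cluster from 34809092 to 34823460. Its strongest site had a fold of 17.01, 9 bp from its lower end. The sources used here do not say how reads were divided between the copies, so the folds of C4b and C4a are uncertain. Cfi, the protease that inactivates C3b and C4b, had 5 sites, the strongest with a fold of 18.8 (17.1 to 20.7, −log10 q 88.9) at 129836563 on chromosome 3, 164 bp outside its span. A further site within reach of Cfi had a fold of 14.8, 4087 bp outside its span but nearer to Pla2g12a. A summit of fold 30.7 lay beyond 10 kb and within 50 kb of Cfi.

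The lectin route, in which mannose-binding lectins recognise microbial sugars and act through the MASP proteases, had sites at 4 of 4 genes. Mbl1 had a pair of nearly equal sites with folds of 17.8 (16.1 to 19.6, −log10 q 82.2), at 41152525 on chromosome 14 and 1069 bp after the start, and 17.6 deeper in the gene. For Mbl2 the highest folds lay upstream, 13.98 at 3148 bp and 13.01 at 9940 bp, while the summit 272 bp after its start had 5.88. Masp1 had 6 sites, of which 5 were inside its span, with folds of 7.31 to 13.7. Masp2 was weaker, with a strongest fold of 6.17, 275 bp after a RefSeq start inside its span.

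All 6 terminal component genes had sites. C8a and C8b, which encode 2 chains of C8, are neighbours on chromosome 4, where 10 peaks lie over the pair and its flanks. C8a had the strongest, 18.7 (16.9 to 20.6, −log10 q 88.9) at 104824842, near the far end of the gene 51556 bp from its start. It also had a start-proximal site of 11.7 that lies inside the span of the neighbouring Fyb2. That span overlaps the span of C8a, and the C8a sites of 13.6, 4.60 and 4.10 lie in both. C8b had equal folds of 9.34 at both of its ends. C8g, the lipocalin chain of C8, had 1 site with a fold of 7.91, 172 bp upstream of a start. C9 had summits with folds of 12.8, 2785 bp upstream and nearer to Dab2, and 11.7, 118 bp upstream. Hc, the mouse C5 gene, had 12.5, 2197 bp upstream of a start inside its span, and C6 had 12.05, 107 bp upstream of its start.

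The 3 genes with no site were C1qa, C1qb and C1qc, which encode the recognition molecule of the classical route and are made mainly by macrophages rather than hepatocytes. They form a cluster of 18.7 kb on chromosome 4, from 136880126 to 136898844. The nearest ZT10 summits had folds of 6.72, 141 kb beyond C1qa, and 4.51, 191 kb away on the other side, so 350 kb between flanking summits held none. Whole liver holds several cell types, and absence of binding in macrophages cannot be told apart from there being few macrophages in the tissue. The lists hold no expression values, but marker genes of liver cell types were counted by the same rule: 10 of 10 hepatocyte markers had a ZT10 site, with strongest folds of 7.82 to 21.2, against 3 of 9 Kupffer cell markers (Csf1r 5.98, Cd68 8.003 and Folr2 6.38) and 3 of 5 of sinusoidal endothelium (Stab2 24.2, Lyve1 13.1 and Pecam1 8.83). Clec4f, Timd4, Cd5l, Marco, Adgre1 and Vsig4, which also mark Kupffer cells, had no site. Of all protein-coding genes 54.5% had a site, which is near the share of the few endothelial markers. The part of cell makeup in the absence of C1q sites was not tested.

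Coagulation and complement genes had nearly equal median strengths. A site was present at 20 of 20 coagulation genes and at 15 of 18 complement genes, and at 15 of the 15 that hepatocytes make. The median strongest fold was 13.3 in coagulation (range 5.06 to 31.9) and 13.2 in complement, counting the C1q genes as lowest, or 13.98 (6.17 to 24.2) without them. A fold of 10 or more was reached by 15 coagulation and 12 complement genes. A fold of 20 or more was reached by 4 and 3 genes, against 3.99% of all protein-coding genes. Sites per 10 kb of span and flank numbered 0.615 and 0.609. The other genes of the cascades counted as hepatocyte-made, described below, were less alike. Their median was 13.06 in coagulation, with 10 of 15 at a fold of 10 or more, against 8.28 and 4 of 12 in complement. These values describe the genes and were not tested, since genes of 1 pooled list are not replicates and neighbours share sites.

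**Figure D4:**
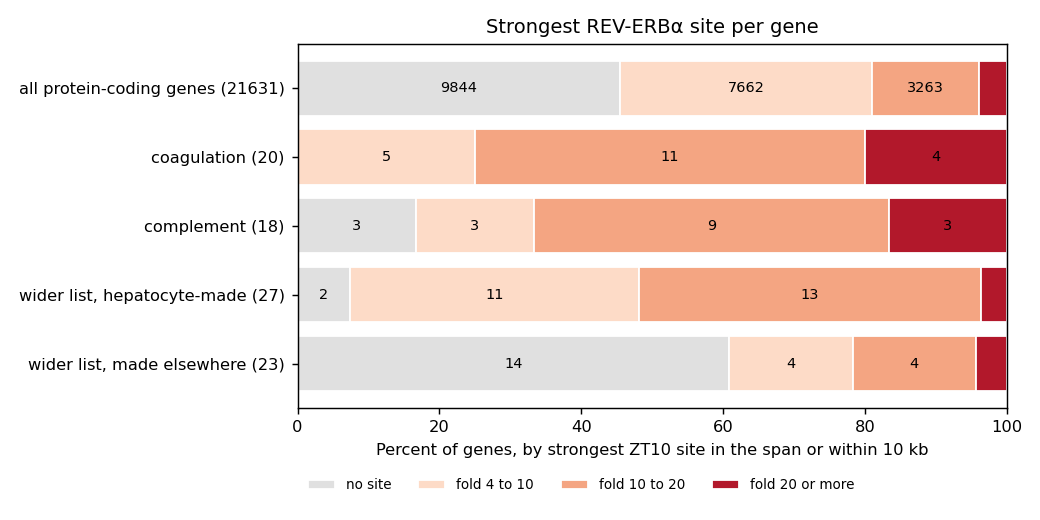
Share of genes (x axis, percent) by the fold of the strongest ZT10 site inside the span or within 10 kb, for all 21631 protein-coding genes, the 20 coagulation and 18 complement genes, and the other genes of both cascades split by where they are made (numbers in the bars are genes). No site was found for 9844 of all genes, 0 coagulation genes, 3 complement genes, 2 of 27 further genes counted as hepatocyte-made and 14 of 23 made elsewhere.

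A further 50 protein-coding genes of both cascades, not among the 38, were split by whether they are mainly made outside hepatocytes. The 27 not listed as made elsewhere were counted as hepatocyte-made, and 25 of them had a site (92.6%). A fold of 10 or more was reached by 14 of the 27, and the median strongest fold was 10.2. The 27 include Cd46, Cd55, Cd59a, Cr1l, Lman1 and Mcfd2, for which hepatocytes as the main source were not established here. Among the inhibitors, Serpinc1, which encodes antithrombin, had a fold of 22.6, and Serping1, the gene of C1 inhibitor, had 11.4. The C1q-associated proteases are made by hepatocytes and had strongest folds of 8.28 for C1ra and 4.79 for C1s1. Enzymes of the vitamin K cycle had 13.1 (Ggcx) and 5.47 (Vkorc1). No site was found for A2m and Cd55. Proz, which lies within 50 kb of F7 and F10, had a strongest fold of 18.02, equal to that of F10. The same summit may thus be counted both among the 38 genes and here.

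Of the 23 genes made mainly in other cells, 9 had a site (39.1%), against 54.5% of all protein-coding genes. The 9 included Cfd, the gene of the adipocyte protease factor D, at 15.4, and Fcna, a macrophage ficolin gene, at 14.9. F2r, F3, Vwf, Plaur, Cr2 and Itgam had folds of 5.06 to 11.6. The 14 with no site included F8, Tfpi, Thbd, Procr, Plat and Plau, which endothelial and other cells make, and the complement receptor genes C5ar1, C3ar1 and Vsig4, of which Vsig4 is also one of the Kupffer cell markers above. Over the 38 and the 50 genes together, a site was present at 60 of 62 genes counted as hepatocyte-made (96.8%) and at 9 of 26 made elsewhere (34.6%). The assignment to a source came from general knowledge and not from these mice, and was not checked against expression.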

How the data were processed

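The 2 deposited peak lists were made from 4 pooled REV-ERBα samples each, per the labels. MACS2 2.1.2, BWA 0.7.17, deepTools 3.3.0, SAMtools 1.9, Picard 2.18.12, cutadapt 2.3 and bcl2fastq 2.17, with the build mm10, are named without roles in the submitters' processing notes. Nuclei were fixed with formaldehyde and EGS, chromatin was sonicated and libraries were made with Tn5, per the labels' protocols. The sources used here give neither the control library behind the folds nor the total read depth. The fold in the deposited lists is the authors' ratio of summit pileup over local background, used only within a list. Each peak also carries the authors' −log10 p, used to solve fragments, and −log10 q, used to rank peaks. The deposited score column was not used.

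Summits were assigned to RefSeq gene spans of GRCm38.p6 (Python 3.11.15, pandas 2.3.3, scipy 1.17.1), and all 38 genes matched. The RefSeq table gives no exons, so sites are placed inside or outside spans, and starts and strands came from the RefSeq promoter table. The lowest local background, 4.14 in pileup units, gave 0.236 units per fragment, and each summit was solved for a whole number of fragments. This step was tested on simulated data. C4a was not counted among the protein-coding genes of the wider list, and not every gene of that list is reported here by name. Values are given in full for the 12 genes with the strongest site and the strongest of each role, without a position for Proc. The genes, lists, motifs and this rule were chosen with earlier results of these data known. No test was made, and alternatives changed the reach, the peaks counted, the gene assignment and the background.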

Additional observations from a re-analysis of the deposited data

How the results depend on the processing

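The number of genes with a ZT10 site was 27 to 35 of 38 over the alternatives, and no alternative gave a ZT22 site. It was 27 inside the span alone, where 36.2% of all genes had a site, 34 with a reach of 2 kb (47.1%), 35 with a reach of 50 kb (70.5%) and 34 with each summit given to its nearest gene (44.5%). Inside the span alone, the median strongest fold dropped to 7.04 for coagulation and to 7.04 for complement. There, 8 genes (Kng1, Kng2, Fga, Fgg, Proc, Hrg, Cfb and C9) had summits only outside. The strongest fold of 7 others fell below its counting interval, such as C3 at 4.14, Fgb at 4.01 and Cfi at 5.06. That of C4b fell to 15.9, within its interval. Distinct sites numbered 53 inside the span alone, 166 with a reach of 50 kb and 45 with a fold of at least 10. With all 49554 annotated genes as background, 38.7% had a site. Ranking by −log10 q kept 11 of the 12 strongest genes. With a reach of 50 kb, the strongest fold of 10 genes moved beyond its counting interval, to 23.6 for C8g and 30.7 for Cfi among them.

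No paired analysis was possible because each deposited list holds the pool of 4 samples and no value of a single one. For the same reason no sample was left out in turn. Precision is limited by the fragments at a summit, and sites under a fold of 4 are not listed.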
